A study of Mus musculus with 10 samples.

Results

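The guanylate-binding protein genes, or GBP genes, were followed by RNA sequencing in cells of MC38, a colon carcinoma line of C57BL/6 mouse origin, grown as tumors in C57BL/6J mice. The 10 genes Gbp2 to Gbp11 were chosen by symbol, and each was found by its Ensembl identifier among the 53379 genes of the count table. All 10 had enough counts to be among the 14337 genes tested. The tumor cells were sorted as dTomato-positive and CD45-negative from tumors taken 21 days after implantation. They came from 5 high-fat-diet mice and 5 control-diet mice, with 1 library of polyadenylated RNA per mouse. Every mouse carried the same line, so the data describe 1 tumor model. The sources used here do not give diet composition, time on diet, sex or age. The single comparison in the design is between the diets, and differences are given as high-fat minus control on the log2 scale.

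GBP proteins are large GTPases of the dynamin superfamily. Interferon-gamma strongly induces their genes, with IRF1 among the factors that act on them, and type I interferons do so with STAT2 and IRF9. The proteins assemble on membranes of bacteria and parasite-containing vacuoles and help set off inflammasomes. In tumors, GBP transcripts are commonly read as a sign that cells have met interferon.

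The genes lie in 2 clusters on GRCm38. The chromosome 3 cluster spans 144031 bases (chr3:142493978-142638008) and holds Gbp5, Gbp7, Gbp3 and Gbp2 on the plus strand, in that order. The chromosome 5 cluster spans 332323 bases (chr5:105014150-105346472) and holds Gbp8, Gbp9, Gbp4, Gbp10, Gbp6 and Gbp11 on the minus strand. Gbp2, the most abundant member, occupies chr3:142620602-142638008, and Gbp3 and Gbp7 occupy chr3:142560026-142573209 and chr3:142530342-142550149. Gbp4 occupies chr5:105115767-105139586, and its first exon is shared with Gbp8 and Gbp9 over 60 or 61 bases. Gbp11 is annotated as a polymorphic pseudogene and the other 9 as protein coding. Gbp2b, the gene formerly called Gbp1, sits beside Gbp2 but is no member here. It had 149 counts over the 10 libraries and was not tested.

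The 4 chromosome 3 members are shown by the stretch before a RefSeq start site that holds a match to an interferon-stimulated response element, the DNA element bound by IRF family factors. The RefSeq promoter table (GRCm38.p6) had entries for these 4 and for Gbp2b. In the 250 bases before each start site, both strands were searched for 2 copies of GAAA separated by any 2 bases, and capitals mark the matches, which here read on the minus strand. The stretches are plus strand, 5′ to 3′.
Gbp2, chr3:142620554-142620629: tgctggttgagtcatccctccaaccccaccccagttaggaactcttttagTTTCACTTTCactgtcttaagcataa
Gbp3, chr3:142559949-142560030: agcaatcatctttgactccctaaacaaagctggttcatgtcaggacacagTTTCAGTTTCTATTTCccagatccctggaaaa
Gbp5, chr3:142496719-142496794: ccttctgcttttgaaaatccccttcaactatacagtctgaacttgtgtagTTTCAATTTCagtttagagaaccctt
Gbp7, chr3:142530233-142530308: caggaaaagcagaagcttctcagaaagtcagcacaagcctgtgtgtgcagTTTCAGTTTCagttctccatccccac
The match lies 59 bases before the RefSeq start site in Gbp2 (142620663), 53 in Gbp7 (142530336) and 165 in Gbp5 (142496934). The GENCODE genes start earlier for Gbp2 (142620602) and Gbp5 (142493978), so by that annotation both matches lie inside the gene, and 28 bases of the Gbp2 stretch lie in its own exon. Gbp3 has a pair of overlapping matches 45 and 39 bases before its start site (142560044), in 1 of its RefSeq promoters. The GENCODE gene of Gbp3 starts at 142560026, so 5 bases of its stretch lie in its own exon, and both matches lie before the gene. The same letters were present in 2.98% of all 32851 promoters searched (978 promoters). TTCNNNGAA, the palindrome of the gamma-activated site, was found among the 4 in the promoters of Gbp5 and Gbp7, 2 matches each, and in 7.02% of all promoters. GGGA followed by any base and TTTCC, a form of the NF-kB site, was found in that of Gbp5 alone among the 4, and in 0.356% of all promoters. These matches are letters in a window and were not tested for binding.

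The coding sequences show how close the members are to one another, which bears on how well reads can be assigned. The 24 bases that encode the P-loop, the loop that grips the phosphates of the bound nucleotide, were read from the GENCODE M21 reading frames (GRCm38). Capitals mark bases that differ from Gbp2.
Gbp2: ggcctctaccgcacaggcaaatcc
Gbp5: ggTctTtaTcgcacaggcaaatcc
Gbp7: ggActAtaccgTacGggAaaatcc
Gbp3: ggTTtAtaTcgTacaggGaaGtcc
Gbp9: ggATtGtaccgTacaggGaaGtcc
Gbp4: ggATGGtCccATacaggGaaGtcc
Gbp10: ggATGGtCccgTacTggGaaGtcc
Gbp5 differs from Gbp2 at 3 of these bases, Gbp7 at 5, Gbp3 at 7, and Gbp4 and Gbp10 at 9. Gbp6, Gbp8, Gbp9 and Gbp11 share 1 form, with 6 differences from Gbp2.
The last 15 bases of the reading frame separate the members that carry a cysteine codon for prenylation, the lipid tail that holds a GBP on membranes. Capitals mark the fourth codon before the stop.
Gbp2: TGCactatactctga
Gbp5: TGTgttataagctaa
Gbp2 and Gbp5 have a cysteine codon there, and the other 8 members do not.

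Sequence sharing limits some members. Along the longest transcript of each, 82.5% of 50-base windows of Gbp10 occurred exactly in transcripts of other genes, and 70.6% occurred in those of Gbp6. For Gbp6 the shared percentage was 59.7%. It was 19.2% for Gbp11, 18.2% for Gbp8, 12.8% for both Gbp4 and Gbp7, and between 2.07% and 8.31% for Gbp2, Gbp5, Gbp3 and Gbp9. With 100-base windows it was 70.9% for Gbp10, 51.3% for Gbp6, 10.2% for Gbp7, 5.13% for Gbp11, 4.36% for Gbp8 and 2.88% for Gbp4. The labels give no read length. The coding sequences of Gbp6 and Gbp10 are 98.4% identical, and those of Gbp4 and Gbp11 are 90.7% identical. Gm43302, a gene model whose exons run over parts of Gbp6 and Gbp10, was listed with 0 counts in every library, although 792 of its 4310 exon bases are its own. Gm43802, a pseudogene inside Gbp7, had 0 counts as well. The sources used here do not say how reads that fit several genes were counted, so the counts of Gbp6 and Gbp10 are uncertain.

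Gbp2 was by far the most abundant GBP transcript in the sorted tumor cells. Levels are compared between genes as CPM (counts relative to each library's TMM-scaled total, in the usual unit) divided by kilobases of annotated exon, over all 10 libraries. Gbp2 averaged 474 ± 123 CPM per kilobase (SD, n = 10) and Gbp3 averaged 71.3 ± 24.02. Gbp7 (38.6 ± 11.4), Gbp4 (36.1 ± 11.6) and Gbp9 (35.1 ± 9.19) came next and overlapped. Gbp7 was above Gbp4 in 8 of 10 libraries and Gbp4 above Gbp9 in 6 of 10, so this order does not stand beyond the spread. Divided by the longest transcript instead, Gbp4 moved above Gbp7 and Gbp6 above Gbp8. Gbp5 averaged 10.8 ± 3.12, Gbp8 averaged 3.41 ± 1.27 and Gbp6 averaged 2.60 ± 0.966. Gbp10 (0.767 ± 0.394) and Gbp11 (0.524 ± 0.283) were lowest. Among neighbours in the order, the ranges were apart for Gbp2 and Gbp3, for Gbp9 and Gbp5, and for Gbp5 and Gbp8.

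**Figure D1:**
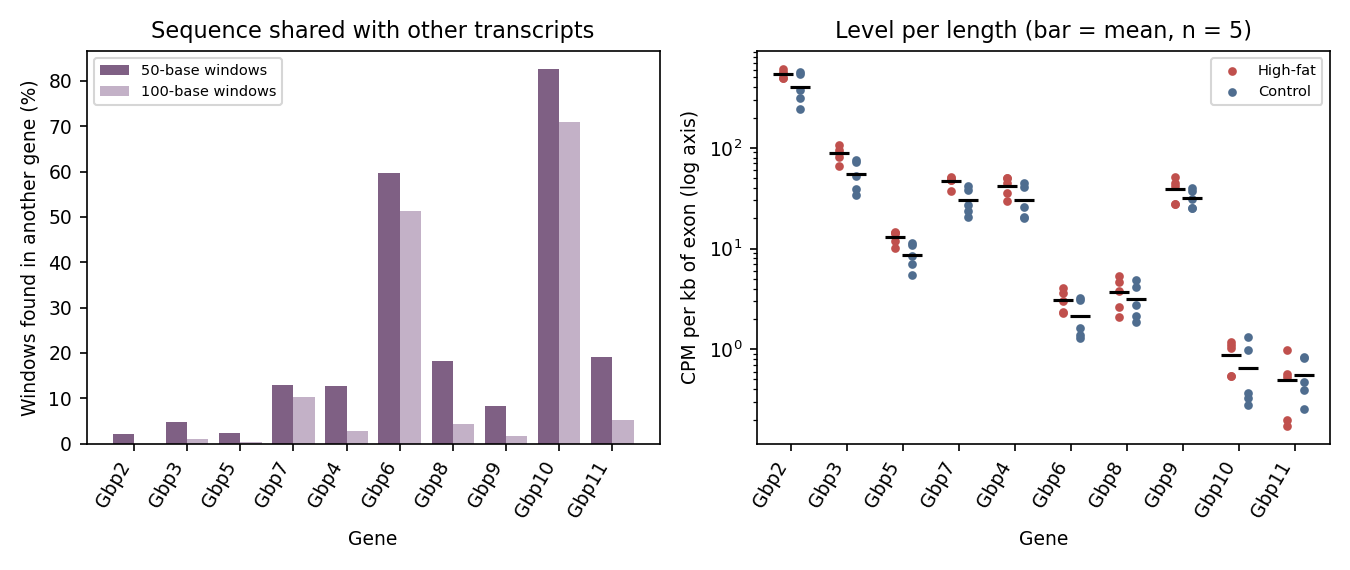
Left, percentage of 50-base and 100-base windows of each GBP gene's longest transcript found in another gene, from 82.5% for Gbp10 to 2.07% for Gbp2 at 50 bases. Right, CPM per kilobase of exon on a log axis, 1 point per mouse, high-fat left of control, with bars at the mean of 5 mice; Gbp2 lies above every other member in both diets.

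The 10 genes together took between 0.216% and 0.279% of all counts in high-fat libraries, against between 0.120% and 0.252% in control libraries. Their summed level was 2550 ± 264 CPM in high-fat mice and 1848 ± 619 CPM in control mice (SD, n = 5 each). Gbp2 made up 53.7% ± 3.84 of the family's counts in high-fat mice and 55.1% ± 1.80 in control mice (SD, n = 5 each).

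No GBP gene passed the test between the diets. Of the 10 genes, 0 had a Benjamini-Hochberg adjusted p under 0.05 by the quasi-likelihood test of edgeR over 14337 genes, where 0.0628% of all genes passed. At an unadjusted p under 0.05, 3 of the 10 were higher in high-fat tumors, namely Gbp3, Gbp5 and Gbp7, and 0 were lower, against 5.45% of all genes higher and 12.1% in either direction. DESeq2 called 2 genes higher, Gbp3 and Gbp7, where it called 0.769% of all genes higher. Limma-voom called 0, where it called 0.0349% of all genes. With sample quality weights, which were added later, limma-voom called 3 higher, Gbp3, Gbp5 and Gbp7, where it called 2.41% of all genes higher. The estimate was positive for 9 of 10, against 51.4% of all genes. The median estimate was 0.45 for the 10 genes and 0.0057 for all tested genes. The 10 genes vary together across mice and are not independent of each other. The groups overlapped for all 10 genes, whereas they did not overlap for 2.18% of all genes.

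Deletion of the chromosome 3 cluster in mice is known to weaken activation of the caspase-11 inflammasome. Within it, Gbp3 had the largest estimate. It had 214, 266, 292, 313 and 352 CPM in high-fat mice 1 to 5, against 172, 110, 247, 234 and 129 CPM in control mice 1 to 5. In 4 of 5 high-fat mice it was above the highest control mouse, and high-fat mouse 1 fell among the controls. The means were 287 ± 51.4 CPM in high-fat mice and 178 ± 61.1 CPM in control mice (SD, n = 5 each). The log2 difference was 0.69 (SE 0.22), with an adjusted p of 0.255 in edgeR.

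Gbp7, a neighbour of Gbp3 whose coding sequence is 76.5% identical to it, showed nearly the same layout. It had 207, 270, 288, 281 and 271 CPM in high-fat mice 1 to 5, against 151, 116, 214, 237 and 132 CPM in control mice 1 to 5. Again 4 of 5 high-fat mice were above every control mouse and high-fat mouse 1 was not. The log2 difference was 0.63 (SE 0.19), with an adjusted p of 0.221 in edgeR, the smallest among the 10 genes.

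Gbp5, a prenylated member that promotes inflammasome assembly, was less abundant. It had 78.5, 93.9, 95.0, 96.3 and 67.3 CPM in high-fat mice 1 to 5, against 55.8, 36.1, 72.2, 75.6 and 46.9 CPM in control mice 1 to 5. High-fat mouse 5, which had the most Gbp3, had the least Gbp5 of its group and fell among the controls. The log2 difference was 0.59 (SE 0.19), with an adjusted p of 0.247 in edgeR.

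Gbp2, the prenylated member recruited to bacteria and to parasite vacuoles, had a narrow range in high-fat mice and a wide one in control mice. It had 1245, 1426, 1252, 1541 and 1354 CPM in high-fat mice 1 to 5, against 936, 610, 1425, 1365 and 782 CPM in control mice 1 to 5. The high-fat mice lay close together, while control mice 3 and 4 were level with them and control mice 1, 2 and 5 were lower. The means were 1364 ± 125 CPM in high-fat mice and 1024 ± 359 CPM in control mice (SD, n = 5 each). The log2 difference was 0.41 (SE 0.21), with an adjusted p of 0.459 in edgeR.

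**Figure D2:**
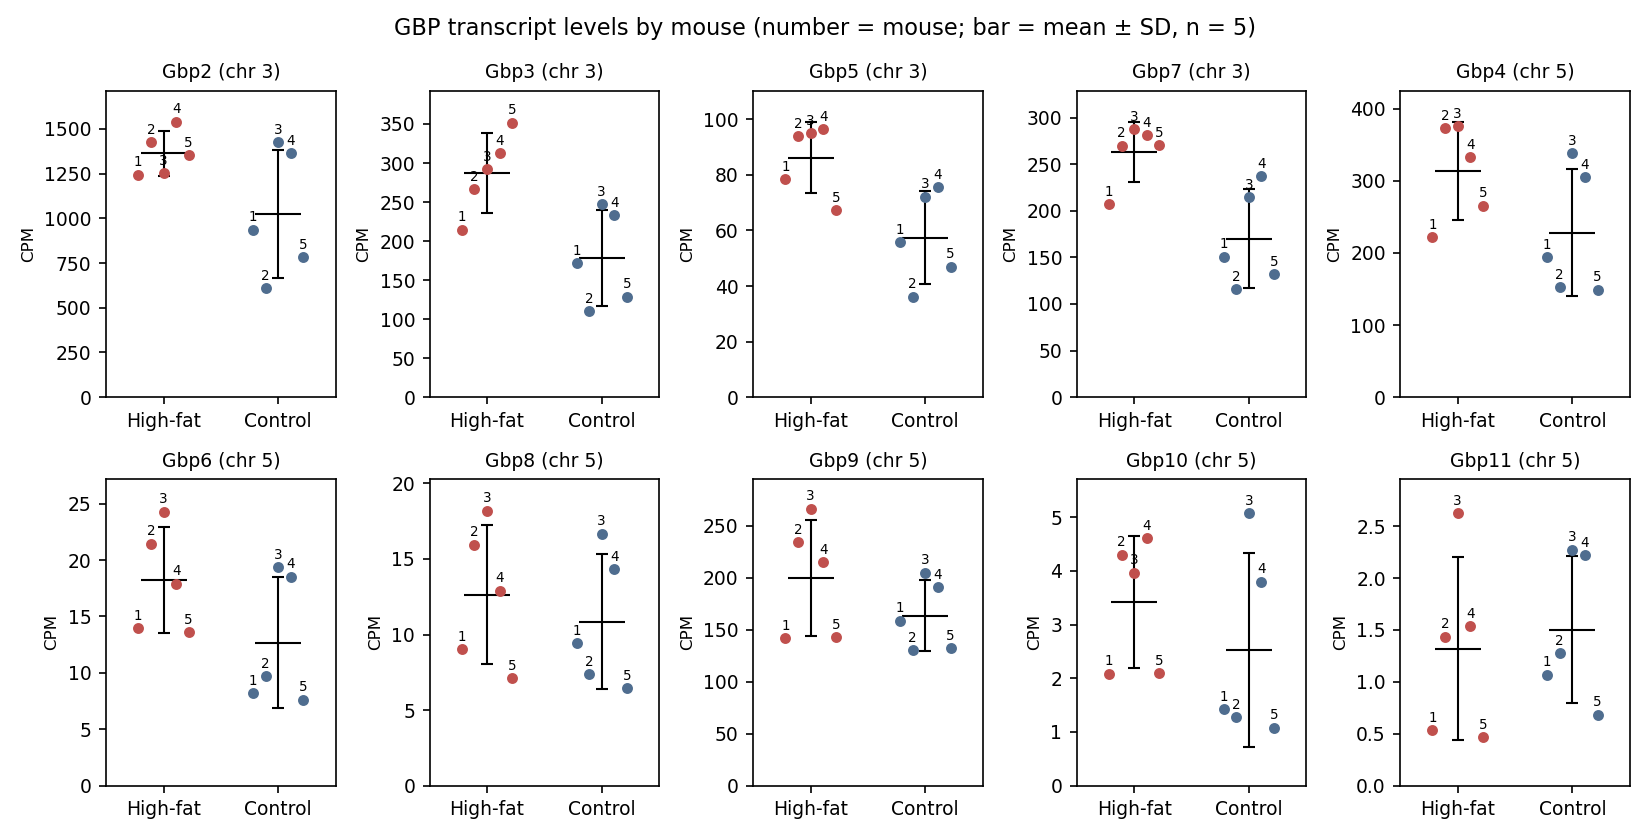
CPM of each GBP gene, 1 numbered point per mouse, high-fat left and control right, with the mean and SD of 5 mice. Control mice 3 and 4 are the highest controls in all 10 panels and overlap the high-fat mice.

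The 6 chromosome 5 genes had a median estimate of 0.36, against 0.61 for the 4 on chromosome 3, and 0 of the 6 reached an unadjusted p under 0.05 in edgeR. The difference between the clusters was not tested. Gbp4, reported in mouse to bind IRF7, had 222, 372, 375, 333 and 266 CPM in high-fat mice 1 to 5, against 194, 153, 338, 305 and 149 CPM in control mice 1 to 5. Only high-fat mice 2 and 3 were above the highest control mouse. Its log2 difference was 0.46 (SE 0.25), with an adjusted p of 0.511 in edgeR.

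Gbp9 had 142, 234, 266, 215 and 143 CPM in high-fat mice 1 to 5, against 159, 130, 205, 191 and 132 CPM in control mice 1 to 5. Here high-fat mice 1 and 5 fell among the lower controls, and the other 3 were above every control. The log2 difference of Gbp9 was 0.29 (SE 0.20), with an adjusted p of 0.614 in edgeR.

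Gbp6 averaged 18.2 ± 4.67 CPM in high-fat mice and 12.7 ± 5.78 CPM in control mice (SD, n = 5 each). Its log2 difference was 0.52 (SE 0.29), with an adjusted p of 0.522 in edgeR. Gbp8 averaged 12.6 ± 4.62 CPM in high-fat mice and 10.8 ± 4.46 CPM in control mice (SD, n = 5 each), a log2 difference of 0.22 (SE 0.31, adjusted p 0.841 in edgeR). Gbp10, which shares most of its sequence with Gbp6, averaged 3.41 ± 1.23 CPM in high-fat mice and 2.53 ± 1.80 CPM in control mice (SD, n = 5 each), a log2 difference of 0.43 (SE 0.44, adjusted p 0.771 in edgeR). Each of these genes had overlapping groups. Leaving out 1 library at a time moved the log2 difference between 0.053 and 0.43 for Gbp8, between 0.24 and 0.84 for Gbp10 and between 0.17 and 0.40 for Gbp9.

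Gbp11, the polymorphic pseudogene, was the 1 gene with a negative estimate. Its libraries held 9, 24, 43, 26 and 8 counts in high-fat mice 1 to 5, against 18, 24, 39, 42 and 12 counts in control mice 1 to 5. The log2 difference was -0.19 (SE 0.46, adjusted p 0.917 in edgeR). Its direction was not settled, and it was positive, at 0.38, when control mice 3 and 4 were left out.

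**Figure D3:**
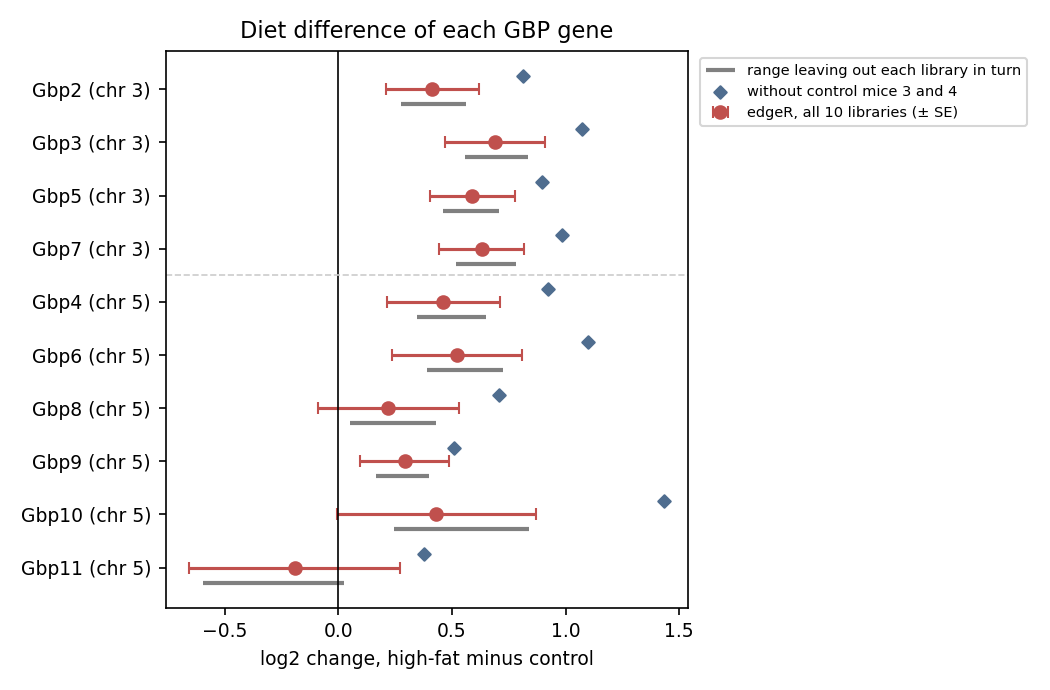
Log2 difference of each GBP gene, high-fat minus control, with its SE (circles), the range when each library is left out in turn (grey lines) and the value without control mice 3 and 4 (diamonds). The circles run from 0.69 for Gbp3 to -0.19 for Gbp11, and each diamond lies to the right of its circle.

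Most GBP genes varied less among high-fat mice than among control mice. The SD of log2 CPM was lower in the high-fat group for 8 of 10 genes, against 41.1% of all tested genes. The ratio of the high-fat SD to the control SD had a median of 0.573 over the 10 genes and of 1.13 over all tested genes. Gbp2 had an SD of 0.13 in high-fat mice and 0.52 in control mice. The exceptions were Gbp9, with 0.42 in high-fat mice and 0.30 in control mice, and Gbp11, with 0.95 in high-fat mice and 0.67 in control mice. The difference in spread was not tested.

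The mice that set the control spread also stood apart in leukocyte markers. In all 10 GBP genes the 2 highest control libraries were those of control mice 3 and 4. The share of all tested genes with this order was not worked out. The 5 pan-leukocyte markers (Ptprc, Cd52, Coro1a, Laptm5, Cd53) summed to between 7.33 and 34.5 CPM in high-fat mice. In control mice they summed to 96.0 CPM in mouse 3, 122 CPM in mouse 4 and between 9.81 and 34.8 CPM in the other 3. The 8 macrophage markers summed to between 23.9 and 55.6 CPM in high-fat mice, against between 52.9 and 372 CPM in control mice, and none of the 8 was at 0 in any library. The macrophage sums were 140, 52.9, 332, 372 and 63.8 CPM in control mice 1 to 5, so control mice 1 and 5 also lay above every high-fat mouse. All 8 markers had negative estimates with an unadjusted p under 0.05 in edgeR. Of all genes, 12.1% had such a p in either direction. After adjustment 0 of the 8 markers passed in edgeR. In these bulk libraries, fewer cells of a type and less RNA per cell cannot be told apart.

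Within high-fat mice the pan-leukocyte sum was 7.33, 34.5, 32.0, 20.6 and 13.6 CPM in mice 1 to 5. Mice 1 and 5, the lowest in these markers, were also the lowest high-fat mice for Gbp4, Gbp5, Gbp6, Gbp8, Gbp9, Gbp10 and Gbp11, but not for Gbp2, Gbp3 and Gbp7. Mice 2 and 3 were the highest high-fat mice for Gbp4, Gbp6, Gbp8 and Gbp9. These orders were not tested. The most Gbp2 of any library, 1541 CPM, was in high-fat mouse 4, and the most Gbp3, 352 CPM, in high-fat mouse 5. Control mouse 4 had 1365 CPM of Gbp2 with 122 CPM of the markers. Gbp2b was highest in the same control mice, with 8, 7, 2, 13 and 9 counts in high-fat mice 1 to 5, against 6, 2, 36, 63 and 3 counts in control mice 1 to 5. T and NK cell markers (8 genes) summed to between 0.758 and 7.21 CPM in high-fat mice, against between 0.342 and 12.4 CPM in control mice. Endothelial markers (4 genes) summed to between 21.1 and 28.8 CPM in high-fat mice, against between 17.6 and 25.6 CPM in control mice. Of these, Pecam1 averaged 18.2 ± 2.74 CPM in high-fat mice and 17.2 ± 3.72 CPM in control mice (SD, n = 5 each). Cdh5 averaged 4.62 ± 2.40 and 2.38 ± 1.09 CPM, with an adjusted p of 0.337 in edgeR. Dendritic cell markers (4 genes) summed to between 7.76 and 12.6 CPM in high-fat mice, against between 8.75 and 12.8 CPM in control mice. Neutrophil, B cell and adipocyte markers summed to at most 2.27 CPM in any library. The part of other cells in the GBP levels was not tested.

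The labelled cell type was checked against its own markers too. The 4 epithelial genes Krt8, Krt18, Epcam and Cdh1 summed to between 1.17 and 2.81 CPM in high-fat mice, against between 1.196 and 4.39 CPM in control mice. The fibroblast-type genes Pdgfra, Dcn and Lum summed to between 917 and 1750 CPM in high-fat mice, against between 1144 and 1663 CPM in control mice. These 3 genes were not alike. Over all 10 libraries Dcn lay between 651 and 1280 CPM, Pdgfra between 260 and 465 CPM and Lum between 2.84 and 38.6 CPM. The sorted cells therefore had little epithelial keratin transcript, and the label rests on the dTomato sort.

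The number of GBP genes called differed between fits. When control mice 3 and 4 were left out, which was decided with the values known, 7 of 10 GBP genes rose with an adjusted p under 0.05 in edgeR, where 0.823% of all genes did. These were Gbp2, Gbp3, Gbp4, Gbp5, Gbp6, Gbp7 and Gbp10. The log2 difference was then 1.07 (SE 0.17, adjusted p 0.0129 in edgeR) for Gbp3, 0.98 (SE 0.12, adjusted p 0.00450) for Gbp7 and 0.81 (SE 0.14, adjusted p 0.0157) for Gbp2. Because these mice also had the highest control GBP levels, leaving them out lowers the control means by construction. When the fit carried the pan-leukocyte level as covariate, 8 of 10 GBP genes were higher past the threshold, the exceptions being Gbp8 and Gbp11, where 1.92% of all genes were. The log2 difference in that fit was 0.91 (SE 0.08, adjusted p 0.000118 in edgeR) for Gbp7 and 0.50 (SE 0.11, adjusted p 0.0231) for Gbp9. The median diet estimate of its 5 markers was -1.18, so this covariate is not independent of diet. It was highest in control mice 3 and 4, whose marker sums were 96.0 and 122 CPM. The other controls, between 9.81 and 34.8 CPM, lay near the high-fat range of 7.33 to 34.5 CPM. The covariate, the mean log2 CPM of these markers, also varied among those other libraries. The covariate fit and the omission both bear on control mice 3 and 4 and are not independent of each other. Their results were not the same, as Gbp9 had an adjusted p of 0.248 (SE 0.20, edgeR) with the omission. How far the covariate fit rests on these 2 mice was not tested. Over every alternative run, the edgeR, DESeq2 or limma adjusted p lay between 0.000118 and 0.832 for Gbp7, between 0.00250 and 0.873 for Gbp3, between 0.00628 and 0.920 for Gbp2 and between 0.0231 and 0.974 for Gbp9. Leaving out any single library gave 0 of 10 in edgeR.

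Pairs of members differed in how closely they kept their proportions from mouse to mouse. Over the 10 libraries the SD of the log2 ratio between 2 members was lowest for Gbp3 and Gbp7, at 0.14, followed by Gbp5 and Gbp7 at 0.17. The median over the 21 pairs within a cluster was 0.29, and over the 24 pairs between clusters 0.41. Some pairs between clusters were as close as neighbours, with 0.20 for Gbp4 and Gbp7 against 0.24 for Gbp4 and Gbp9. Within chromosome 5 the SD reached 0.65, for Gbp4 and Gbp11. Low-count members have noisier ratios, and all are on chromosome 5, so the 2 medians do not separate cluster from abundance.

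The balance of Gbp3 to Gbp9, a pair that spans the clusters, was shifted furthest in high-fat mouse 5. No rule set in advance chose this pair, and it does not stand for all 24 pairs between clusters. The SD of its log2 ratio over 10 libraries was 0.42, against 0.23 for Gbp2 and Gbp4. The log2 ratio of Gbp3 to Gbp9 was 0.59, 0.19, 0.13, 0.54 and 1.30 in high-fat mice 1 to 5, against 0.11, -0.24, 0.27, 0.29 and -0.04 in control mice 1 to 5. High-fat mice 1, 4 and 5 were above every control and mice 2 and 3 were not. The log2 ratio of Gbp2 to Gbp4 was 2.49, 1.94, 1.74, 2.21 and 2.35 in high-fat mice 1 to 5, against 2.27, 2.00, 2.08, 2.16 and 2.39 in control mice 1 to 5. Its groups had nearly the same middle, with the high-fat mice spread more widely.

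Among single genes, the groups did not overlap for 2.18% of all tested genes, and the share over pairs of other genes was not worked out. Of all 45 pairs of members, 1 had groups that did not overlap. This was Gbp6 over Gbp8, picked out after its values were seen, with log2 ratios between 0.42 and 0.92 in high-fat mice, against between -0.20 and 0.39 in control mice. The gap between the groups was small beside the range within them, and Gbp6 has 59.7% of its windows shared with other genes.

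**Figure D4:**
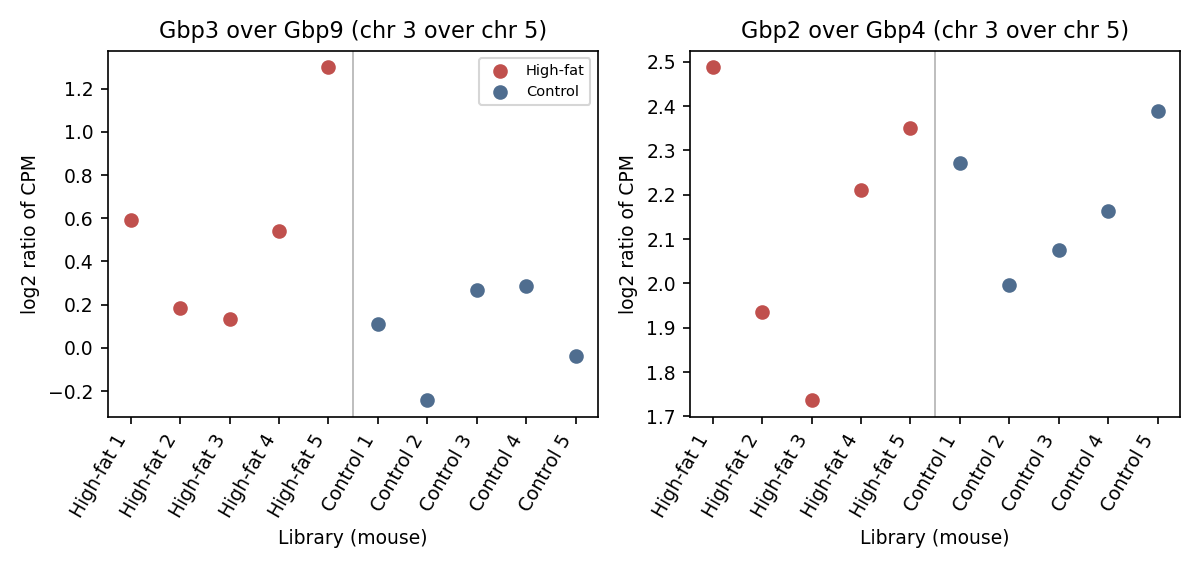
Log2 ratio of CPM of a chromosome 3 member to a chromosome 5 member in each library, Gbp3 over Gbp9 on the left and Gbp2 over Gbp4 on the right, high-fat mice left of control mice. High-fat mouse 5 has the highest Gbp3 to Gbp9 ratio, 1.30, and the Gbp2 to Gbp4 ratios of the diets overlap.

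Genes of the pathway upstream of the GBP genes were read from lists of ligands, receptors, factors and inhibitors. The 6 interferon ligand genes were too low to test, with 10 counts of Ifng and 11 of Ifnb1 over all 10 libraries. Among 7 receptors and kinases, 0 passed adjustment in edgeR and the median estimate was 0.00 in size. Ifngr1, a chain of the interferon-gamma receptor, averaged 93.2 ± 6.84 CPM in high-fat mice and 78.5 ± 10.2 CPM in control mice (SD, n = 5 each), with an adjusted p of 0.300 in edgeR. Jak1, the kinase shared by both interferon receptors, averaged 237 ± 10.2 CPM in high-fat mice and 237 ± 10.3 CPM in control mice (SD, n = 5 each).

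Among 9 transcription factors of GBP induction, 0 passed adjustment in edgeR, 7 had positive estimates and the median was 0.16. Estimates were positive for 51.4% of all genes. Irf9, the DNA-binding partner of STAT2, averaged 66.7 ± 5.84 CPM in high-fat mice and 45.7 ± 13.6 CPM in control mice (SD, n = 5 each), with an adjusted p of 0.249 in edgeR. Irf1 averaged 512 ± 15.3 CPM in high-fat mice and 437 ± 75.9 CPM in control mice (SD, n = 5 each), with an adjusted p of 0.402 in edgeR. As with Gbp2, both genes had the smaller SD in high-fat mice.

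Of 4 inhibitors, 0 passed adjustment in edgeR. Usp18, which restrains type I interferon receptors, averaged 20.3 ± 1.95 CPM in high-fat mice and 13.9 ± 3.63 CPM in control mice (SD, n = 5 each), with an adjusted p of 0.210 in edgeR. Socs3, a cytokine-induced inhibitor of JAK kinases, averaged 265 ± 32.7 CPM in high-fat mice and 331 ± 49.8 CPM in control mice (SD, n = 5 each), with an adjusted p of 0.276 in edgeR.

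Genes that act with or on GBP proteins gave 0 calls in edgeR too. The 11 genes of the ubiquitin-like conjugation system that guides GBPs to membranes had a median estimate of 0.0044, and the 6 prenylation genes 0.0051. Of 9 inflammasome and pyroptosis genes, 7 were tested. Casp4, the mouse caspase-11 that GBPs help activate, averaged 71.3 ± 5.31 CPM in high-fat mice and 57.5 ± 6.82 CPM in control mice (SD, n = 5 each), with an adjusted p of 0.196 in edgeR. Il1b averaged 1.40 ± 0.458 CPM in high-fat mice and 4.63 ± 2.79 CPM in control mice (SD, n = 5 each), with an adjusted p of 0.172 in edgeR.

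The immunity-related GTPases, another family of interferon-induced GTPases, had positive estimates in 9 of 9 genes with a median of 0.52, and 0 passed adjustment in edgeR. Igtp averaged 388 ± 42.2 CPM in high-fat mice and 248 ± 119 CPM in control mice (SD, n = 5 each). Of 8 other large GTPases, 5 had positive estimates and 0 passed adjustment in edgeR. Mx2, an antiviral member, averaged 12.7 ± 2.27 CPM in high-fat mice and 6.54 ± 3.48 CPM in control mice (SD, n = 5 each).

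**Figure D5:**
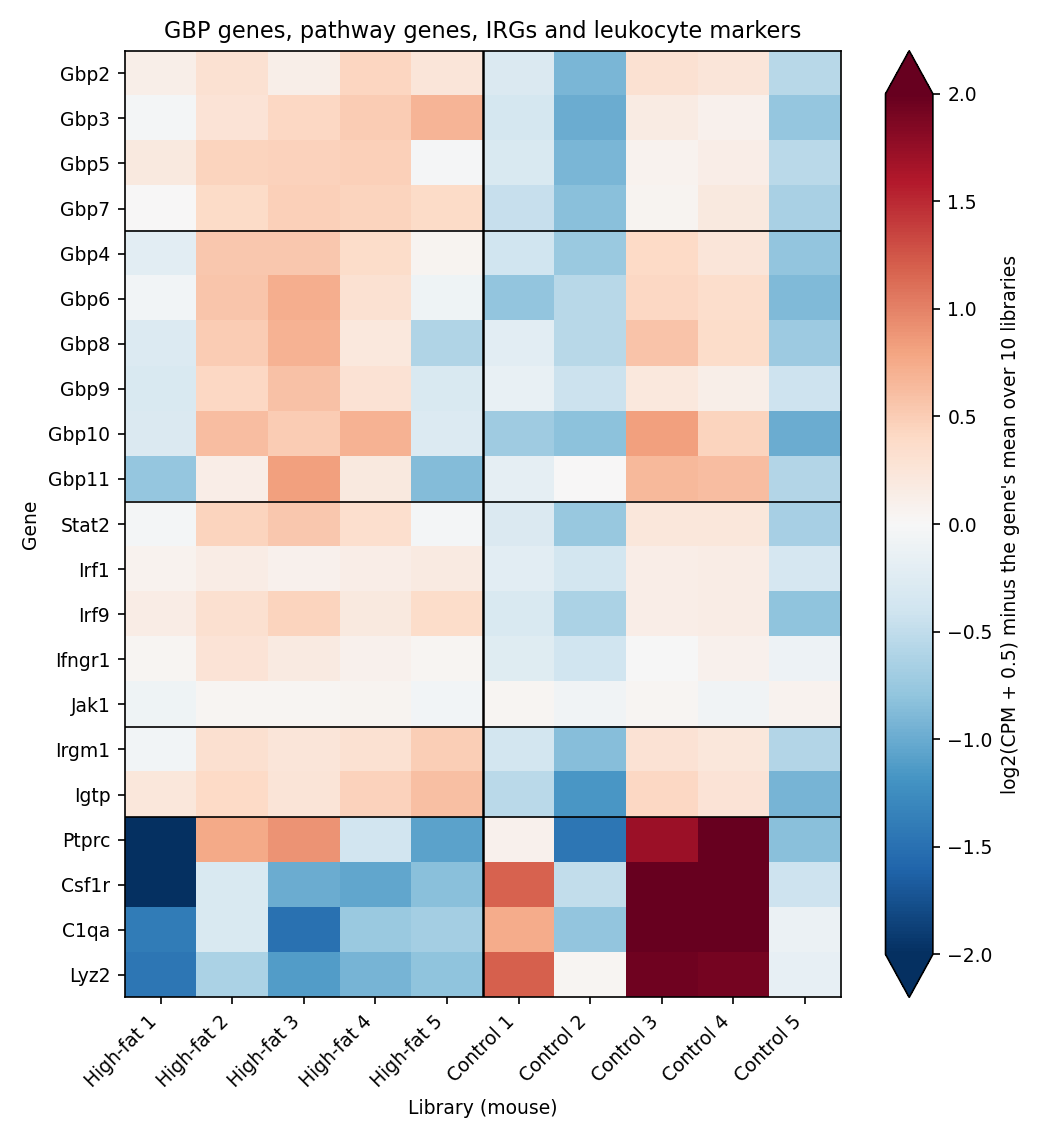
Log2(CPM + 0.5) of GBP genes, pathway genes, immunity-related GTPases and leukocyte markers (rows) in each library (columns, high-fat left of control), minus the gene's mean over 10 libraries. Control mice 3 and 4 are above control mice 1, 2 and 5 in the GBP rows and highest in Csf1r, C1qa and Lyz2.

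The genes closest in pattern to the leading member of each cluster were found by the SD over 10 libraries of the log2 ratio, among 10830 genes with a mean of at least 5 CPM. For Gbp2 they included Irgm1 (0.12), Rtp4 (0.14), Olfr56 (0.15) and Ube2l6 (0.15), against a median of 0.47 for all genes. Gbp4 stood in for chromosome 5 because its mean per kilobase of exon was the highest there, although it did not exceed that of Gbp9 beyond the spread. Its nearest genes were Stat2 (0.11), Parp14 (0.12), Oasl2 (0.14), Samd9l (0.14) and Cd274 (0.15), against a median of 0.54.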

How the data were processed

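Raw read counts per gene were deposited by the authors as whole numbers in 1 table for all mice. DESeq2 1.24.0, BWA 0.7.12, cutadapt 1.15, FastQC 0.11.5 and the builds mm10 and GRCm38 are listed without roles, per the submitters' processing notes. The sources used here name no counting program, strand setting or treatment of multi-mapping reads. Libraries held 16513388 to 17154050 counts in high-fat mice and 17050797 to 18653705 in control mice. A count of 3, the limit that a count of 0 allows, equals 0.158 to 0.183 CPM, and covers counting error only. All 45 pairs of libraries differed by more than sampling noise (chi-square per degree of freedom at least 8.26).

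Of the 53379 identifiers, 53274 matched GENCODE M21 without the version suffix. The test was the quasi-likelihood test of edgeR 4.0.16 (R 4.3.3) on all 10 libraries (TMM, filterByExpr, robust quasi-likelihood fit, diet as the only term, two-sided, Benjamini-Hochberg adjustment, threshold 0.05), which kept 14337 genes. SE is the absolute log2 difference divided by the square root of F. SDs and ratios of log2 CPM used a prior count of 2. Alternatives were RLE size factors, no filter, DESeq2 1.42.0, limma-voom (limma 3.58.1), library size or pan-leukocyte level as a covariate, a replicate block and each library left out. Sample quality weights, the joint omission of control mice 3 and 4 and 100-base windows were added after the data were seen. The edgeR fit was first tested on simulated data. The GBP genes, the pathway and marker lists and the tests were chosen with earlier results of these data known. Named genes are all 10 members, at most 6 a list (the most highly expressed and those with the smallest p), and the 5 nearest patterns per cluster, except for 1 gene that is not reported here.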

Additional observations from a re-analysis of the deposited data

Results flagged for a closer look

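Gbp7 in high-fat mouse 1 stood apart from its group. It had 207 CPM there, and the next lowest high-fat mouse had 270 CPM. The gap was 0.777 of the group's range, above the 95% critical value of 0.71 for 5 samples. In all, 22 groups of 5 mice were examined this way, over the 10 GBP genes and Gbp2b, and chance alone flags about 1 in 20.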

How the results depend on the processing

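The count of all genes past the threshold, 9 in the edgeR test, was 9 with RLE size factors, 53 with no filter on low counts, 316 with DESeq2, 5 with limma-voom, 740 with sample quality weights, 0 with library size as a covariate (817 at an unadjusted p under 0.05), 536 with pan-leukocyte level as covariate and 276 without control mice 3 and 4. Leaving out 1 library gave between 1 and 27, with 27 without control mouse 3 and 21 without high-fat mouse 1. GBP genes past the threshold numbered 2 with DESeq2, 3 with sample quality weights (Gbp3, Gbp5 and Gbp7), 8 with the pan-leukocyte covariate and 7 without control mice 3 and 4, and 0 in every other alternative run, including each of the 10 omissions. Positive estimates numbered 9 or 10 throughout. The direction of Gbp11 reversed to 0.087 with quality weights, 0.27 with the pan-leukocyte covariate and 0.38 without control mice 3 and 4, and ranged from -0.60 to 0.025 over single omissions. The other 9 genes kept their sign in all alternatives run. The cause of these shifts was not tested. The median shared percentage was 12.8% with 50-base windows and 3.62% with 100-base windows. Over all tested genes, the deviations of same-numbered mice correlated at 0.225, -0.360, 0.333, -0.073 and 0.147. Only mouse 3 matched its own number best, and the labels state no pairing. A replicate block gave 16 genes and 0 GBP genes past the threshold. With it, 6 GBP genes had an unadjusted p under 0.05 in edgeR, against 3 in the main fit. Of all 14337 genes, 1646 and 1731 did. The block lowered the SE from 0.29 to 0.16 for Gbp6 and from 0.22 to 0.20 for Gbp3. Whether the numbers pair the samples was not tested. Over all libraries Gbp10 had 512 counts and Gbp11 had 245, the lowest of the 10 genes.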
